A study of Mus musculus with 12 samples.

Results

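The 8 noncoding RNAs described here, *Malat1*, *Neat1*, *Rn7sk*, *Gas5*, *Snhg1*, *Snhg8*, *Snhg12* and *Mir155hg*, were picked by name from the 55471 gene rows of an RNA-seq count matrix. The gene symbol of the row identified 7 of them, and *Rn7sk*, whose symbol cell was empty, was found by its gene identifier ENSMUSG00000065037. The matrix held 12 libraries of mouse dendritic cells (DCs), obtained by culture of C57BL/6 bone marrow in granulocyte-macrophage colony-stimulating factor. All cells, controls included, had been transduced with an LMP retrovirus that carries a human CD8 reporter, and were sorted on human CD8. The virus delivered a short hairpin RNA against firefly luciferase (shControl) or against *Ppargc1b* (shPpargc1b), which encodes the transcriptional coactivator PGC-1β. DCs of each kind were left unstimulated or were stimulated for 6 h with IFN-β, which gave 4 groups of 3 libraries. The labels give 1 hairpin name for *Ppargc1b*, so the loss of its product and other effects of that hairpin cannot be told apart. No label stated whether the 3 libraries of a group came from separate cultures or animals, so all p-values measure only the spread between these libraries.

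Long noncoding RNAs such as *Malat1* and *Neat1* stay in the nucleus: *Malat1* is found in nuclear speckles, and *Neat1* is the RNA on which paraspeckles are built. *Rn7sk*, made by RNA polymerase III, encodes the 7SK RNA, which holds the transcription elongation kinase P-TEFb in an inactive particle with HEXIM proteins. *Gas5*, *Snhg1*, *Snhg8* and *Snhg12* are host genes: small nucleolar RNAs (snoRNAs), which guide the modification of ribosomal RNA, are cut out of their introns, and the spliced host transcript is mostly degraded by nonsense-mediated decay when it is translated. *Mir155hg* is the precursor of miR-155, a microRNA known for its induction in activated macrophages and DCs.

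In mouse build GRCm38 with GENCODE annotation, *Malat1* (chr19:5795690-5802672, minus strand) and *Neat1* (chr19:5824708-5845478, minus strand) are neighbours, each in a single exon block. *Rn7sk* lies at chr9:78175303-78175633 on the minus strand and is 331 bases long. The host genes lie at chr1:161034422-161038539 (*Gas5*, plus strand), chr19:8723475-8726443 (*Snhg1*, plus strand), chr3:123507552-123508404 (*Snhg8*, minus strand) and chr4:132308623-132311024 (*Snhg12*, plus strand). *Mir155hg* covers chr16:84703167-84715245 on the plus strand.

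The 2 mature microRNAs of the *Mir155hg* transcript are shown because the gene is known for them. Capitals mark the seed, bases 2 to 8, with which a microRNA pairs to its targets. The sequences are from RefSeq, build GRCm38.p6, chr16:84714143-84714165 and chr16:84714182-84714202, plus strand.
mmu-miR-155-5p: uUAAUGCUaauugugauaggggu
mmu-miR-155-3p: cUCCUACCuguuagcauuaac

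Many snoRNA-host and ribosomal protein transcripts begin with a terminal oligopyrimidine (TOP) run, a C followed by pyrimidines, which ties their translation to growth signals. The starts of the 4 host genes are shown for this feature. Each line gives 40 bases before and 40 from the RefSeq start site, read on the gene's strand in GRCm38.p6, at chr1:161035126-161035205 for *Gas5* (the second of its 2 RefSeq starts), chr19:8723447-8723526 for *Snhg1*, chr3:123508297-123508376 for *Snhg8* and chr4:132308638-132308717 for *Snhg12*. Capitals mark a TOP run, a C within 10 bases of the start that is followed by at least 4 C or T.
Gas5: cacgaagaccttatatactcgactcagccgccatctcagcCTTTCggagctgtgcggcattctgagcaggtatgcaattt
Snhg1: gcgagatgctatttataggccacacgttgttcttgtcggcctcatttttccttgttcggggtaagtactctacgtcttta
Snhg8: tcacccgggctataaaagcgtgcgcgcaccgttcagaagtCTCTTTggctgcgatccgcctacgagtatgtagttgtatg
Snhg12: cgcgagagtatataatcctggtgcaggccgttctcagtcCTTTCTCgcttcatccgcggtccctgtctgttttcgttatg

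*Gas5* at the start shown, *Snhg8* and *Snhg12* matched this definition, and *Snhg1* did not. The marked runs have 5, 6 and 7 bases, counted from the matching C nearest the start. In *Gas5* and *Snhg12* the base before the marked run is a C too, so a longer run also matches. The first RefSeq start of *Gas5*, at base 161034601, did not match either. It lies 179 bases from the GENCODE start and the start shown lies 744 bases from it. The definition is loose. It was met by 31.2% of 25673 RefSeq windows, by 41 of 74 windows of cytosolic ribosomal protein genes and by 6 of 14 windows of other snoRNA hosts. Over the whole window, from 250 bases before to 50 after the start, an interferon-stimulated response element core occurred in none of the member windows on either strand, against 3.35% of all windows, nor did TGANTCA (7.44% of all windows) or CACGTG (7.58%). A loose NF-κB-like pattern, found in 54.4% of all windows, occurred at both starts of *Gas5* and at *Snhg8*. The RefSeq start of *Mir155hg* lies 9856 bases inside the GENCODE gene, so its window does not describe the GENCODE start. No window was used for *Neat1* or *Rn7sk*.

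Libraries held 49919648 to 77726101 counts. Values below are CPM, the counts of a gene per 1000000 counts of the library, on edgeR's TMM scale (trimmed mean of M-values), and a gene was called changed at an adjusted p below 0.05 in edgeR's quasi-likelihood test with Benjamini-Hochberg adjustment over 18228 genes. All 8 noncoding RNAs passed the filter on low counts. Over all genes tested, the knockdown called 12.4% higher and 11.1% lower in unstimulated and 11.5% higher and 12.7% lower in IFN-β-stimulated DCs, and IFN-β called 23.7% higher and 24.6% lower in shControl and 21.4% higher and 21.2% lower in shPpargc1b DCs. Counts of called genes given for each gene list stand beside these shares. *Ppargc1b* was 34.5 ± 1.94 CPM (SD, n = 3) in unstimulated shControl and 19.4 ± 0.851 CPM in unstimulated shPpargc1b DCs, and 27.8 ± 3.93 against 18.7 ± 2.83 CPM with IFN-β. The IFN-β-induced genes *Isg15*, *Ifit1* and *Cxcl10* rose by 4.96, 5.25 and 6.44 on the log2 scale in shControl DCs. The dendritic cell markers *Itgax*, *Zbtb46*, *Flt3* and the MHC class II genes were tested, and the 8 markers of that list summed to 4470 to 6498 CPM. *Cd74* gave the largest part, with 2086 ± 194 CPM in unstimulated shControl DCs, where *Zbtb46* was 18.7 ± 2.34 and *Flt3* 1.94 ± 0.404 CPM. The 8 macrophage markers summed to 2461 to 3261 CPM over the 12 libraries. In bulk RNA, fewer cells of a type and less RNA per cell cannot be told apart.

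The 8 noncoding RNAs took 2.27% to 2.53% of all counts. *Malat1* alone took 1.34% and *Rn7sk* 0.954% of the counts of the 12 libraries, *Neat1* 0.0984%, and the other 5 members 0.00451% or less each. In unstimulated DCs their joint share was 2.49% ± 0.0334 (SD, n = 3) in shControl and 2.45% ± 0.0657 in shPpargc1b libraries. With IFN-β it was 2.32% ± 0.0436 and 2.34% ± 0.0371. The exact two-sided permutation test gave p = 0.4 for the knockdown without IFN-β, p = 0.5 with IFN-β, and p = 0.1 for IFN-β in either kind of DC, where 0.1 is the smallest value that 3 against 3 libraries allow. The share was lower in all 6 IFN-β libraries than in any unstimulated library when divided by the library total. Divided by the TMM-scaled library size it was higher with IFN-β, by 0.225 percentage points in shControl and 0.226 in shPpargc1b DCs.

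Levels of different genes are compared per kilobase of annotated exon, merged over all transcripts of a gene. This exon covered the whole span of *Snhg1*, *Snhg8* and *Snhg12* and 3760 of 4118 bases of *Gas5*, but 1433 of 12079 bases of *Mir155hg*. The order of the members depends on these unlike lengths. In unstimulated shControl DCs, *Rn7sk* was highest with 29731 ± 693 CPM per kb (SD, n = 3), followed by *Malat1* with 1710 ± 31.2, *Neat1* with 54.4 ± 3.62 and *Mir155hg* with 10.2 ± 0.422 CPM per kb. *Gas5* (5.19 ± 0.602 CPM per kb) and *Snhg1* (4.81 ± 0.62) overlapped between libraries, *Snhg8* followed with 3.9 ± 0.202 and *Snhg12* was lowest with 1.48 ± 0.243 CPM per kb. The order changed in one place at the upper end: in shPpargc1b DCs with IFN-β, *Mir155hg* (61.6 ± 2.54 CPM per kb) stood above *Neat1* (43.0 ± 1.88), with no overlap between libraries. Among the hosts, *Snhg8* stood above *Snhg1* in shControl DCs with IFN-β, at 2.85 ± 0.2 against 2.14 ± 0.0867 CPM per kb.

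**Figure D1:**
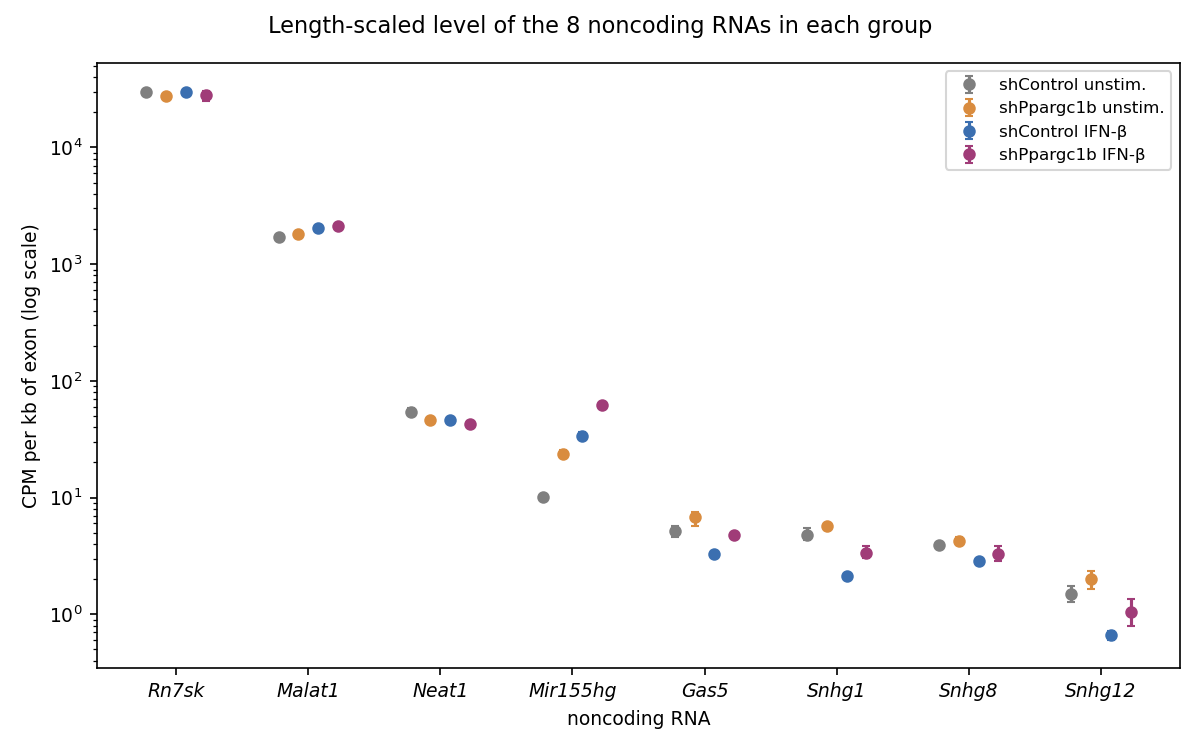
Level of each of the 8 noncoding RNAs in CPM per kilobase of exon on a log scale, by group; points are means of 3 libraries and bars run from the lowest to the highest library. *Rn7sk* and *Malat1* are far above the rest in every group, and *Mir155hg* climbs from 10.2 CPM per kb in unstimulated shControl DCs to 61.6 in shPpargc1b DCs with IFN-β.

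*Mir155hg* differed most between the groups. It was 14.7, 15.2 and 14.0 CPM in the 3 unstimulated shControl libraries and 36.7, 33.4 and 32.1 CPM in the unstimulated shPpargc1b libraries. With IFN-β it was 52.0, 47.3 and 46.3 CPM in shControl and 84.7, 88.3 and 92.0 CPM in shPpargc1b DCs. The 4 groups did not overlap, and each step, knockdown or IFN-β, was a step up.

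The knockdown raised *Mir155hg* 2.32-fold in unstimulated DCs (log2 fold change 1.22, SE 0.06, edgeR adjusted p = 7.2e-09) and 1.82-fold with IFN-β (0.87, SE 0.06, adjusted p = 1.2e-07). IFN-β raised it 3.31-fold in shControl (1.73, SE 0.06, adjusted p = 2.3e-12) and 2.6-fold in shPpargc1b DCs (1.38, SE 0.06, adjusted p = 2.7e-11). These comparisons share libraries and are not independent of each other. The knockdown difference on the log2 scale was smaller by 0.35 (SE 0.09) with IFN-β than without it, which had an unadjusted p of 9.0e-04 and an adjusted p of 0.074 in edgeR. DESeq2 gave an adjusted p of 0.0117 for this interaction, the fit with the library-code run as a block 0.0325 and the fit on all genes with a count 0.00555, so the call depends on the setting.

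The *Mir155* hairpin, annotated wholly within exon of the host on the same strand, had 0 counts in all libraries. A read there overlaps both genes, so 0 counts do not show absence. The mature microRNA was not measured by these libraries. Of 15 genes listed as reported miR-155 targets, 3 were higher and 5 lower in shPpargc1b than in shControl DCs without stimulation, and 2 were higher and 6 lower with IFN-β. Their median log2 fold change was 0.05 and -0.12, beside -0.00 and -0.01 over all genes. The lowest were *Maf* (-0.92 and -0.81), a transcription factor of macrophages, and *Trp53inp1* (-0.47 and -0.64), a p53-induced stress gene. The highest that passed were *Arg2* (0.61 and 0.67), the mitochondrial arginase, and *Fos* (0.41 and 0.38), a subunit of AP-1. *Inpp5d*, which encodes the phosphatase SHIP1, was lower by a small amount (-0.14 and -0.18), and *Bach1*, a heme-binding repressor, likewise (-0.26 and -0.31). *Socs1*, which encodes an inhibitor of cytokine receptor signaling, had 0.18 (SE 0.07, adjusted p = 0.0566) and -0.15 (SE 0.06, adjusted p = 0.106). With IFN-β, 9 of the 15 rose and 3 fell in shControl DCs, with *Socs1* highest at 1.82 and *Il13ra1*, a receptor chain for IL-13, next at 1.26. *Fos* (-0.56) and *Ets1* (-0.42), a lymphoid and myeloid transcription factor, were lowest. In shPpargc1b DCs 8 rose, led by *Socs1* (1.49) and *Maf* (1.08), and 3 fell, with *Fos* and *Ets1* both at -0.59. With library totals as the scale these counts were 6 higher and 5 lower in shControl, and 6 and 6 in shPpargc1b DCs.

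**Figure D2:**
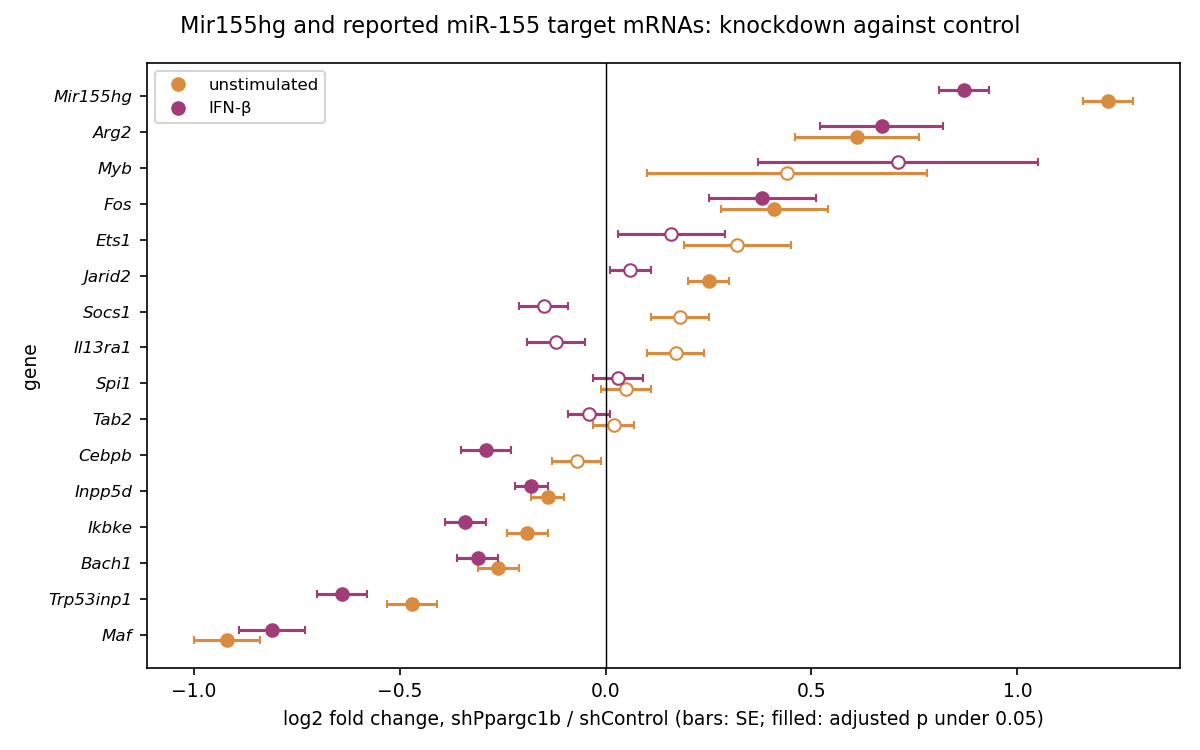
Log2 fold change of shPpargc1b against shControl for *Mir155hg* and 15 mRNAs reported as miR-155 targets, in unstimulated and IFN-β-stimulated DCs; bars are standard errors of the fit, filled points had an adjusted p below 0.05. *Mir155hg* is at the top with 1.22 and 0.87, and the targets spread to both sides of 0, from -0.92 for *Maf* to *Arg2* and *Myb* on the right.

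Of 9 other microRNA host genes, 8 were tested. The knockdown raised 3 and lowered 1 of them without and with IFN-β. *Mir17hg*, the host of the miR-17-92 cluster, was higher by 0.53 (adjusted p = 0.0489) and 0.96 (adjusted p = 0.00244) on the log2 scale. *Mir22hg* was also called in both (0.49 and 0.38), and *Mir9-3hg* had 0.22 (adjusted p = 0.478) in unstimulated DCs and was called with IFN-β (0.7). *Dleu2*, the host of miR-15a and miR-16-1, was lower by the same test (-0.37 and -0.29). IFN-β raised 1 and lowered 2 in either kind of DC: *Mir22hg* (0.33 and 0.22) was higher, and *Mir17hg* (-1.01 and -0.59) and *Mir181a-1hg* (-0.42 and -0.37) were lower. The values of *Mir155hg* (1.73 and 1.38) were above those of all 8 hosts. With library totals as the scale, 0 were higher and 4 and 3 lower.

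The 4 snoRNA hosts were lower with IFN-β. *Snhg1* was 13.8, 12.7 and 16.3 CPM in unstimulated shControl DCs and 6.63, 6.14 and 6.25 CPM after IFN-β, with no overlap. In shPpargc1b DCs it was 15.7, 17.7 and 17.01 CPM without and 11.4, 9.06 and 9.47 CPM with IFN-β. IFN-β thus lowered *Snhg1* 2.25-fold in shControl (log2 fold change -1.17, SE 0.1, adjusted p = 1.4e-07) and 1.69-fold in shPpargc1b DCs (-0.76, SE 0.1, adjusted p = 1.6e-05).

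*Snhg12* had 73 to 388 counts per library, and 73 was the lowest count of any member. Its total over the 12 libraries, 2238, was above the 2141 of *Snhg8*. *Snhg12* was 3.36, 3.08 and 4.2 CPM in unstimulated shControl DCs and 1.58, 1.72 and 1.43 CPM with IFN-β. In shPpargc1b DCs it was 3.96, 5.68 and 4.86 CPM without and 3.24, 1.89 and 2.34 CPM with IFN-β. No IFN-β library reached an unstimulated library of the same hairpin. *Snhg12* changed by -1.17 on the log2 scale (SE 0.2, adjusted p = 1.4e-04) in shControl and by -0.96 (SE 0.19, adjusted p = 5.9e-04) in shPpargc1b DCs.

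*Gas5*, known for its accumulation in growth-arrested cells, was 19.8, 17.1 and 21.6 CPM in unstimulated shControl DCs and 13.1, 12.1 and 12.01 CPM with IFN-β. In shPpargc1b DCs it was 21.3, 28.4 and 27.2 CPM without and 18.0, 17.2 and 18.2 CPM with IFN-β. Again the groups with and without IFN-β did not overlap. *Gas5* fell by 0.66 on the log2 scale (SE 0.1, adjusted p = 6.2e-05) in shControl and by 0.53 (SE 0.1, adjusted p = 4.5e-04) in shPpargc1b DCs.

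*Snhg8* moved least of the 4. It was 3.41, 3.13 and 3.44 CPM without and 2.55, 2.51 and 2.24 CPM with IFN-β in shControl DCs, and 3.89, 3.36 and 3.62 CPM against 3.3, 2.42 and 2.62 CPM in shPpargc1b DCs. The ranges were apart in both, with the highest stimulated shPpargc1b library just under the lowest unstimulated one. Log2 fold changes were -0.46 (SE 0.13, adjusted p = 0.00952) and -0.38 (SE 0.13, adjusted p = 0.0257). The call in shControl DCs was lost without shControl IFN-β replicate 3 (-0.38, adjusted p = 0.0589). The call in shPpargc1b DCs was lost without any one of shPpargc1b unstimulated replicate 1 (adjusted p = 0.0872) or 3 (0.0601) or shPpargc1b IFN-β replicate 2 (0.123) or 3 (0.0921). It was also lost in the fit of only the 2 groups compared (adjusted p = 0.0612) and in the fit on all genes with a count (0.0521).

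All 4 hosts were higher in shPpargc1b than in shControl DCs on average, and part of these differences passed the test. *Gas5* was higher 1.31-fold without (log2 fold change 0.4, SE 0.1, adjusted p = 0.00814) and 1.44-fold with IFN-β (0.52, SE 0.1, adjusted p = 0.00146). The unstimulated *Gas5* ranges touched, since the lowest shPpargc1b library (21.3 CPM) was below the highest shControl library (21.6 CPM). *Snhg1* had 0.24 (SE 0.1, adjusted p = 0.0983) in unstimulated DCs. With IFN-β it had 0.65 (SE 0.11, adjusted p = 3.0e-04), and its groups did not overlap. Without shControl unstimulated replicate 3, the unstimulated *Snhg1* difference was 0.34 and passed (adjusted p = 0.0219).

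*Snhg12* had 0.45 (SE 0.18, adjusted p = 0.0884) in unstimulated DCs, and 0.66 (SE 0.2, adjusted p = 0.028) once stimulated. The second call did not hold without shPpargc1b IFN-β replicate 1 (0.42, adjusted p = 0.161), replicate 3 of that group (0.69, 0.0501), or shControl IFN-β replicate 1 (0.65, 0.0684) or 3 (0.58, 0.113). The first became a call without shPpargc1b unstimulated replicate 1 (0.57, 0.0428) or shPpargc1b IFN-β replicate 1 (0.45, 0.0472). *Snhg8* had 0.12 (95% interval -0.13 to 0.37) and 0.19 (-0.07 to 0.46), which did not pass. For none of the 4 did the knockdown difference itself change with IFN-β beyond the test (lowest adjusted p = 0.257, *Snhg1*, 0.42, SE 0.14).

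The 29 snoRNA, microRNA and other small RNA genes annotated inside the members' spans had 0 counts in every library. Each lies wholly within annotated exon of that member on the same strand, where a read overlaps both genes. The zeros therefore do not show that these RNAs were absent, and the host counts carry no reading of the snoRNAs. Such genes cover 17.8% of the exon bases of *Gas5*, 20.9% of *Snhg1*, 15.2% of *Snhg8* and 19.6% of *Snhg12* on the same strand.

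Most other snoRNA host genes were lower with IFN-β too. Of 17 listed, 13 were tested. In shControl DCs 11 fell and 1 rose, and in shPpargc1b DCs 9 fell and 1 rose, with a median log2 fold change of -0.71 and -0.64 beside -0.03 and -0.02 over all genes. *Snhg17* (-1.22 and -0.96), *Dancr* (-1.15 and -0.64) and *Snhg16* (-1.06 and -0.93) were among the lowest. The host that rose was *Zfas1*, which increased from 12.5 ± 0.429 to 35.3 ± 0.831 CPM in shControl and from 15.5 ± 0.188 to 33.6 ± 1.13 CPM in shPpargc1b DCs. As an antisense gene it cannot be told apart from its partner on the other strand if strand was not used in counting, which is not given in the sources used here. The knockdown raised 3 and lowered 1 of the 13 in unstimulated DCs, with *Snhg4* at 0.59, *Snhg6* at 0.47, *Zfas1* at 0.32 and *Snhg11* at -0.8. With IFN-β it raised 6, led by *Dancr* (0.94) and *Snhg4* (0.72), and lowered *Snhg11* (-0.75).

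**Figure D3:**
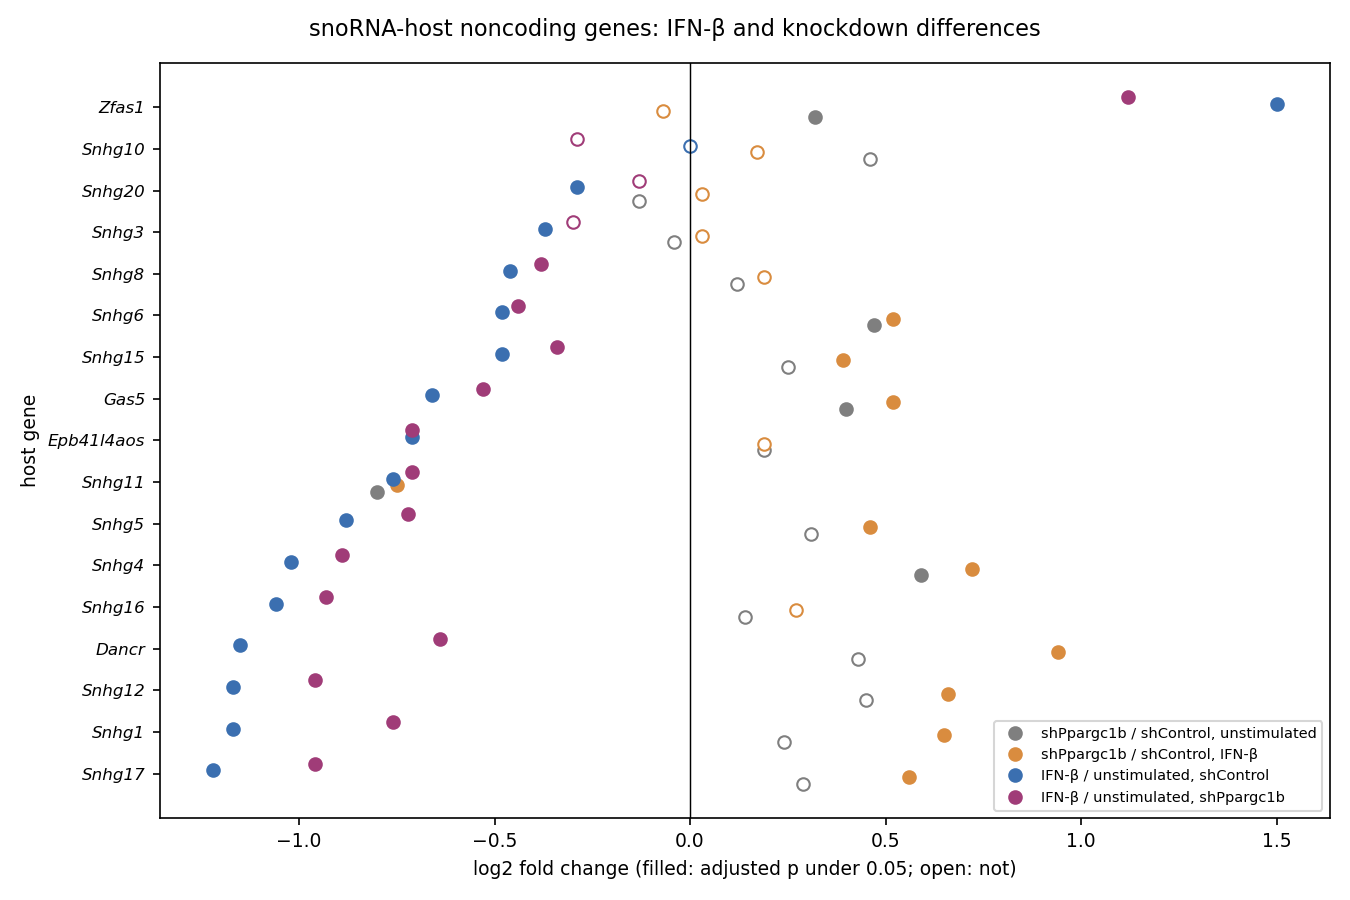
Log2 fold changes of 17 snoRNA-host genes, the 4 members and 13 others, in the 4 comparisons, ordered by the IFN-β difference in shControl DCs; filled points had an adjusted p below 0.05. The IFN-β points lie left of 0 for nearly every gene, with *Zfas1* at 1.5 and 1.12 as the exception, and most knockdown points lie right of 0, with *Snhg11* on the left.

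Most genes for proteins that bind snoRNAs were lower with IFN-β. Of 15 snoRNP core proteins and assembly factors, IFN-β lowered 11 in shControl and 12 in shPpargc1b DCs, with medians of -0.58 and -0.45. It raised 0 by edgeR or DESeq2, and 0 rose at an unadjusted p below 0.05. The lowest were *Dkc1* (-2.03 and -1.49), the pseudouridine synthase of box H/ACA particles, and *Nop58* (-1.57 and -1.11), a core protein of box C/D particles. The knockdown raised 4 and lowered 1 (*Pih1d1*, -0.27) in unstimulated DCs and raised 6 with IFN-β, with *Gar1* at 0.64 and 1.11, *Nop56* at 0.47 in unstimulated and *Nop58* at 0.91 in IFN-β-stimulated DCs. Of 83 cytosolic ribosomal protein genes, IFN-β lowered 55 and raised 1 (*Rps20*, 0.23) in shControl, and lowered 47 and raised 1 (*Rps27l*, 0.16) in shPpargc1b DCs. *Rpl13a* (-0.78 and -0.5) and *Rpl3* (-0.56 and -0.52) were lowest, and the median was -0.22 and -0.17. With library totals 79 and 77 were lower. The knockdown called 2 of the 83 in unstimulated DCs (*Rpl38*, 0.16, and *Rps4x*, -0.16) and 6 with IFN-β, 4 higher and 2 lower. Those 6 included *Rps27l* (0.24), *Rps26* (0.21), *Rpl30* (-0.28) and *Rps4x* (-0.23).

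Of 14 nonsense-mediated decay factors, IFN-β raised 6 and lowered 3 in shControl DCs and raised 4 and lowered 3 in shPpargc1b DCs, where 23.7% and 24.6% of all genes in shControl and 21.4% and 21.2% in shPpargc1b DCs were called higher and lower. *Smg8*, a regulator of the SMG1 kinase, was among those that rose (0.25 and 0.25). *Upf3b* (-0.42 and -0.32) was lowest in both, followed by *Casc3* in shControl (-0.33) and *Magoh* in shPpargc1b DCs (-0.21). With library totals as the scale the counts turned to 1 higher and 7 lower in both. The knockdown called 0 in unstimulated DCs by edgeR, DESeq2 or an unadjusted p below 0.05, and 3 of the 14 with IFN-β, beside 24.2% of all genes, among them *Casc3* (0.24) and *Smg1* (-0.11).

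*Malat1* was 11952, 12150 and 11714 CPM in unstimulated shControl DCs and 13738, 14892 and 14095 CPM with IFN-β. In shPpargc1b DCs it was 12897, 12761 and 12460 CPM without and 14029, 15540 and 14673 CPM with IFN-β. All stimulated libraries stood above all unstimulated ones. On the TMM scale IFN-β raised *Malat1* 1.19-fold in shControl (log2 fold change 0.25, SE 0.05, edgeR adjusted p = 3.6e-04) and 1.16-fold in shPpargc1b DCs (0.22, SE 0.05, adjusted p = 0.00177). On the scale of library totals the difference was 0.01 in both (adjusted p = 0.794 and 0.846), and that scale also moved the median of all genes to -0.27 and -0.22 with IFN-β. The knockdown difference was 0.09 (95% interval -0.00 to 0.18, adjusted p = 0.204) without and 0.05 (-0.04 to 0.14) with IFN-β. Unstimulated libraries of the 2 hairpins did not overlap, although the difference did not pass the test.

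*Neat1* was 1215, 1095 and 1078 CPM in unstimulated shControl DCs and 972, 917 and 992 CPM in unstimulated shPpargc1b DCs. With IFN-β it was 975, 949 and 934 CPM in shControl and 862, 880 and 937 CPM in shPpargc1b DCs. The unstimulated shControl libraries were above all 9 others. The knockdown lowered *Neat1* in unstimulated DCs (log2 fold change -0.23, SE 0.05, adjusted p = 0.00324), as did IFN-β in shControl DCs (-0.25, SE 0.05, adjusted p = 8.8e-04). The knockdown difference with IFN-β (-0.09, SE 0.05, adjusted p = 0.215) and the IFN-β difference in shPpargc1b DCs (-0.1, SE 0.05, adjusted p = 0.117) did not pass, and the interaction was 0.14 (SE 0.07, adjusted p = 0.538). With library totals the IFN-β difference was -0.48 in shControl and -0.31 in shPpargc1b DCs, and both passed.

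The ratio of *Malat1* to *Neat1* counts within a library needs no scaling. It was 10.6 ± 0.675 (SD, n = 3) in unstimulated shControl, 13.3 ± 0.677 in unstimulated shPpargc1b, 14.96 ± 0.805 in IFN-β-stimulated shControl and 16.5 ± 1.02 in IFN-β-stimulated shPpargc1b DCs. The groups did not overlap for the knockdown in unstimulated DCs or for IFN-β with either hairpin, and they overlapped for the knockdown with IFN-β. The exact permutation test of the ratio gave p = 0.1 for the knockdown in unstimulated DCs and p = 0.2 with IFN-β. With either hairpin, the exact permutation test for IFN-β gave p = 0.1, the smallest value that 3 against 3 libraries allow. This ratio was chosen after the values of both RNAs had been seen, so it and its tests describe those values again.

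Of 12 paraspeckle protein genes, IFN-β raised 4 and lowered 5 in shControl DCs and raised 4 and lowered 3 in shPpargc1b DCs. Over all genes 48.2% and 42.6% were called, split about evenly between higher and lower. *Nono* (0.94 and 0.77), a core paraspeckle protein, was highest and *Hnrnph3* (0.44 and 0.32) next. *Nudt21* (-0.54 and -0.34), a cleavage factor subunit, and *Pspc1* (-0.42 and -0.28) were lowest. With library totals 2 were higher and 8 lower in shControl, and 1 and 9 in shPpargc1b DCs. The knockdown lowered *Nudt21* (-0.36) in unstimulated DCs, and with IFN-β it raised *Pspc1* (0.18) and *Sfpq* (0.15) and lowered *Nono* (-0.17). Of 15 other nuclear or structural noncoding RNAs, 9 were tested, and IFN-β lowered 7 of them in either kind of DC (median -0.3 and -0.28), while 0 rose by edgeR, by DESeq2 or at an unadjusted p below 0.05. The lowest were *Pvt1* (-1.59 and -1.14) and *Jpx* (-0.97 and -0.89). The knockdown lowered *Kcnq1ot1* (-0.28 and -0.27), an antisense RNA of an imprinted locus, and *Xist* (-0.16 and -0.18), and raised *Pvt1* with IFN-β (0.47).

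*Rn7sk* was 9578, 9999 and 9946 CPM in unstimulated shControl and 9480, 8578 and 9203 CPM in unstimulated shPpargc1b DCs. With IFN-β it was 9730, 9937 and 10192 CPM in shControl and 10094, 8319 and 9609 CPM in shPpargc1b DCs. Unstimulated shPpargc1b libraries all lay below the shControl libraries, unstimulated and stimulated, and the remaining pairs of groups overlapped. No difference passed: the knockdown gave -0.11 (95% interval -0.24 to 0.01) without and -0.09 (-0.21 to 0.03) with IFN-β, and IFN-β gave 0.02 (-0.11 to 0.14) and 0.04 (-0.08 to 0.16). With library totals the IFN-β difference of *Rn7sk* was -0.22 (adjusted p = 0.00716) in shControl and -0.16 (adjusted p = 0.043) in shPpargc1b DCs, so its direction depends on the scale.

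RNA was sheared to a size near the length of *Rn7sk*, and of other short RNAs *Rmrp* and *Terc* had 0 counts and *Rpph1*, the RNA of RNase P, was 1.65 to 9.08 CPM in unstimulated shControl DCs. Genes listed as ribosomal RNA left after depletion summed to 9029 to 12695 CPM over the 12 libraries. Nearly all of it was the gene *Gm26917*, with 9909 of 9941 CPM in unstimulated shControl DCs on average. *Rn45s* was not in the matrix and *n-R5s1* had no counts, so the sum is no full measure of ribosomal RNA. Of the 3 tested genes of this list 0 were called in the 4 comparisons by edgeR or by DESeq2, and 0 had an unadjusted p below 0.05. Of the 9 genes of the 7SK particle and P-TEFb, IFN-β raised 3 and lowered 3 in shControl DCs and raised 3 in shPpargc1b DCs. *Hexim1*, the inhibitor of P-TEFb within the 7SK particle, was lowest in shControl DCs (-0.38, SE 0.07, adjusted p = 2.8e-04). The other two that fell, *Ccnt1* and *Ssb*, were at -0.12, and *Hexim2* (-0.28) and *Larp7* (-0.22) did not pass. *Ccnt2* (0.15 and 0.14), a cyclin of P-TEFb, was among those that rose in both kinds of DC, as was *Cdk9* (0.13 and 0.12). With library totals 0 were higher and 6 and 4 lower. The knockdown raised *Cdk9*, the kinase of P-TEFb (0.13 without and 0.12 with IFN-β), and lowered *Ccnt1* (-0.1) in unstimulated DCs.

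**Figure D4:**
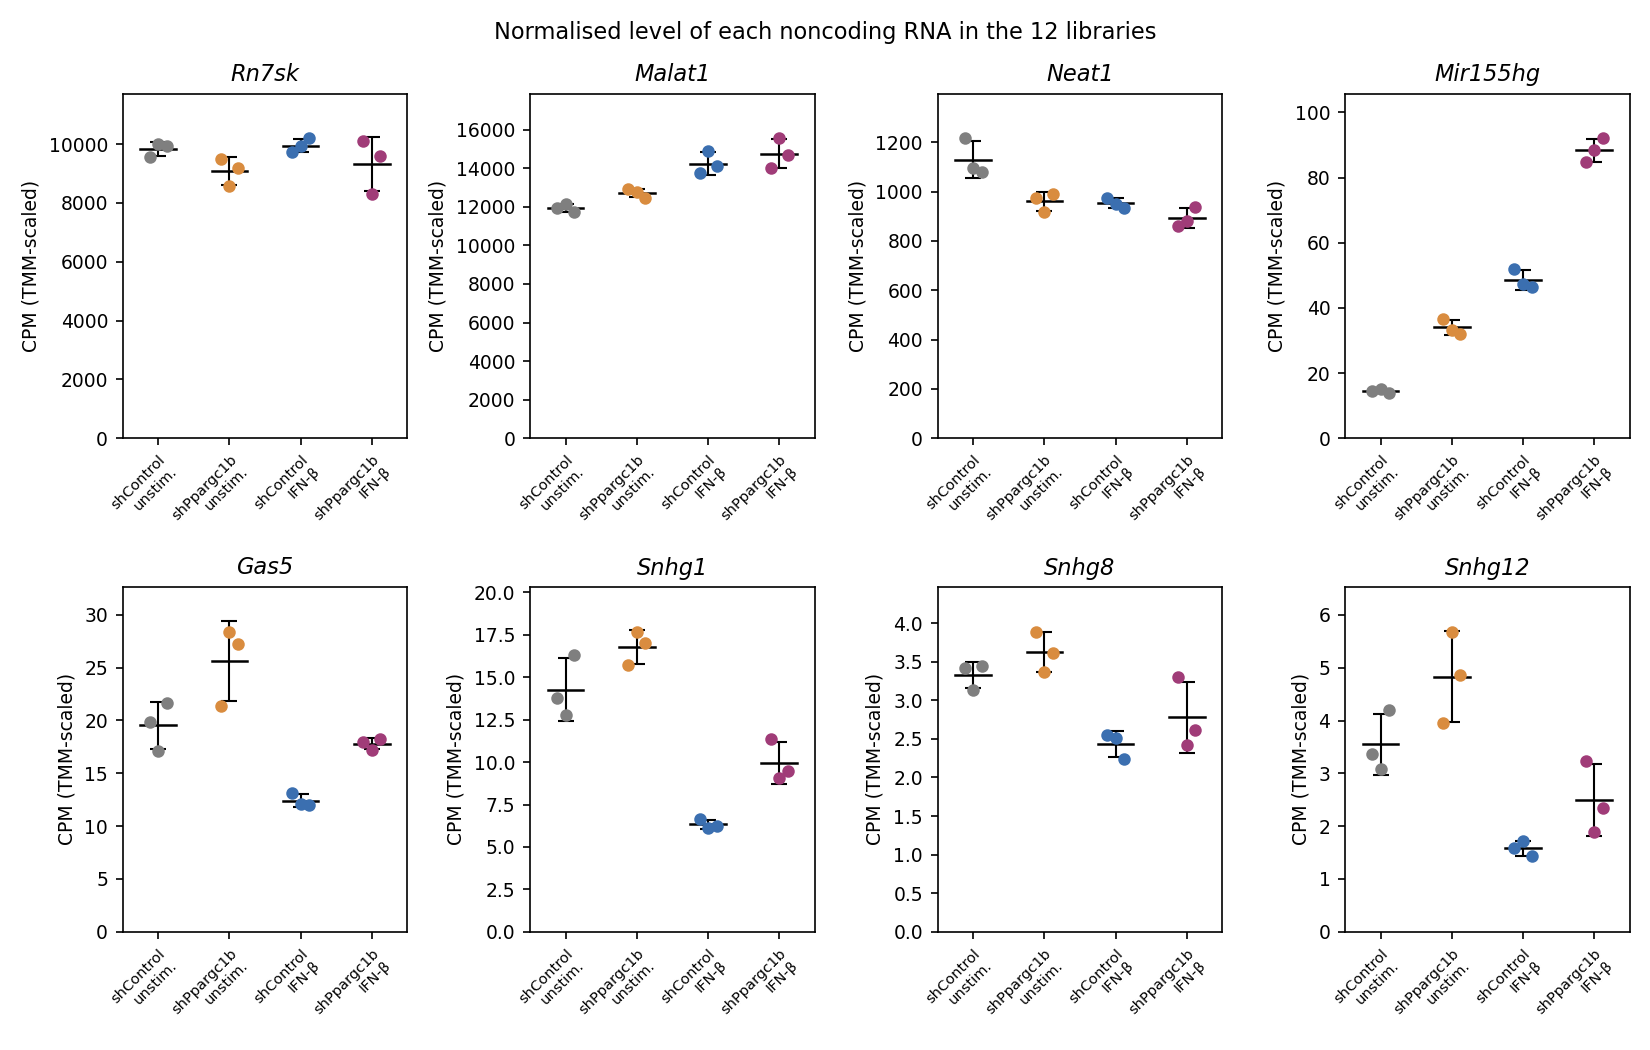
TMM-scaled CPM of each noncoding RNA in every library; points are libraries, lines and bars the mean and SD of 3, and each axis starts at 0. *Rn7sk* has no called difference on this scale, *Malat1* is at 13738 CPM or more in all IFN-β libraries, *Mir155hg* separates all 4 groups, and the 4 hosts are lower with IFN-β.

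Counted over the 8 noncoding RNAs, the knockdown in unstimulated DCs called 3, with 2 higher and 1 lower, where 23.6% of all genes were called, 12.4% higher and 11.1% lower. Groups did not overlap for 4 of 8, against 36.8% of all genes. The knockdown with IFN-β called 4, all higher, where 24.2% of all genes were called, 11.5% higher and 12.7% lower, and 4 did not overlap, against 38.7%. IFN-β in shControl DCs called 7, with 2 higher and 5 lower, where 48.2% of all genes were called, 23.7% higher and 24.6% lower, and 7 did not overlap, against 56.7%. IFN-β in shPpargc1b DCs called 6, with 2 higher and 4 lower, where 42.6% of all genes were called, 21.4% higher and 21.2% lower, and 6 did not overlap, against 50.1%. The interaction called 0 of the 8 by edgeR, where 0.73% of all genes were called, and 2 of the 8, *Mir155hg* and *Snhg1*, had an unadjusted p below 0.05. DESeq2 called 1, *Mir155hg*, where it called 2.46% of all genes. The number of genes called for the interaction depended on the fit: it was 133 in edgeR, 449 in DESeq2, 425 (2.33%) with the library-code block, 525 (1.2%) in the fit on all genes with a count, and 36 to 271 when 1 library was left out. The block fit and the fit on all genes with a count also called *Mir155hg* alone of the 8. The median log2 fold change of the 8 was 0.18, 0.36, -0.36 and -0.24 in the 4 comparisons, beside -0.00, -0.01, -0.03 and -0.02 over all genes. With 8 members these shares are a description of the members alone.

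**Figure D5:**
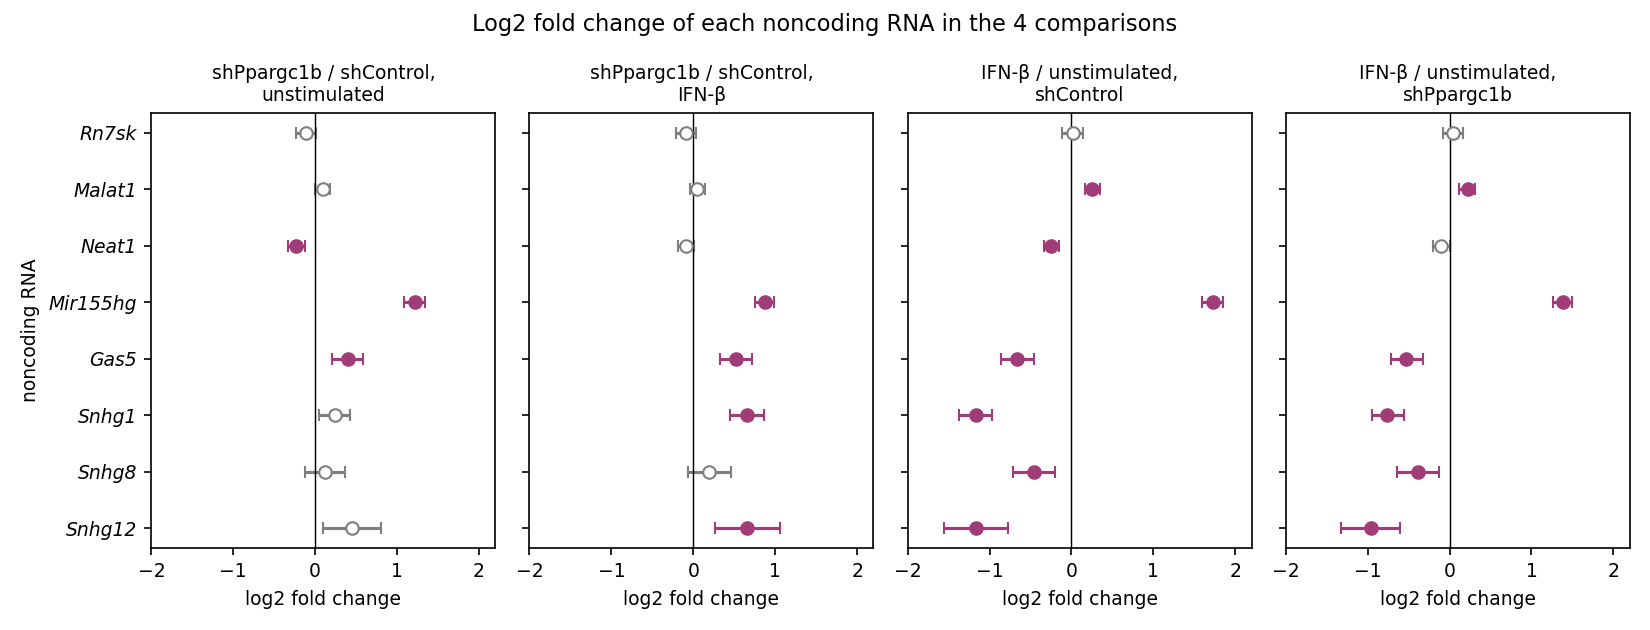
Log2 fold change of each noncoding RNA in the 4 comparisons with its 95% interval; filled points had an adjusted p below 0.05 in edgeR. *Mir155hg* is right of 0 in every panel, the 4 hosts are left of 0 in both IFN-β panels and right of 0 or near it in both knockdown panels, and the *Rn7sk* interval includes 0 in every panel.

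*Slc3a2*, which encodes the 4F2 heavy chain of amino acid transporters, starts 106 bases from *Snhg1* on the opposite strand. It rose with IFN-β by 0.83 in shControl and 0.51 in shPpargc1b DCs, while *Snhg1* fell, and it was higher with the knockdown in unstimulated DCs (0.42, adjusted p = 3.2e-06) and had 0.1 (adjusted p = 0.105) with IFN-β. *Wdr74*, a ribosome biogenesis gene on the other side, had the sign of *Snhg1* in all 4 comparisons (-0.59 and -0.64 with IFN-β, 0.47 and 0.41 with the knockdown). *Mrpl39*, 2331 bases from *Mir155hg*, rose with IFN-β (0.98 and 0.46) and with the knockdown had 0.2 (adjusted p = 0.0132) in unstimulated and -0.32 (adjusted p = 3.0e-04) in stimulated DCs. *Frmd8*, 4224 bases from *Neat1*, rose with IFN-β (0.31 and 0.21), the direction opposite to *Neat1*. *Trnau1ap*, 739 bases from *Snhg12*, was lower with IFN-β (-0.29 and -0.28).

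For each member the 3 genes with the highest Pearson correlation of log2 CPM over the 12 libraries were named, among genes with a mean log2 CPM of at least 3. The correlations are a description, since the libraries fall into 4 groups. *Mir155hg* was followed by *Cd82* (r = 0.995), *Map4* and *Nfat5* (both 0.993), but within groups, after removal of the group means, these had r of 0.14, 0.12 and 0.26. *Snhg12* was followed by *Nol9* (0.985), *Ddx21* (0.979) and *Pdcd11* (0.979), genes of ribosomal RNA processing, with r of 0.9, 0.83 and 0.87 within groups. *Snhg1* was followed by *Morc2a*, *Mybbp1a* and *Rpl9* (each 0.986), and *Gas5* by *Nap1l1* (0.988), *Dnajc2* (0.984) and *Sanbr* (0.982). *Snhg8* was followed by *Gabarapl1* (0.963), *Aqp9* (0.946) and *Zbtb22* (0.941). *Malat1* was followed by *Gm47585* (0.989), *Exoc2* (0.988) and *Ptges* (0.984), *Neat1* by *Rps6kc1* (0.957), *Vwa8* (0.945) and *Atrnl1* (0.942), and *Rn7sk* less closely by *Apoe* (0.864), *Nop53* (0.86) and *Rit1* (0.859).

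Some markers of other cells were higher with the knockdown. The 8 neutrophil markers summed to 41.0 to 95.9 CPM in unstimulated shControl and 90.0 to 158 CPM in unstimulated shPpargc1b libraries, and 1 of the 8, *S100a8* (0.83), was called higher, beside 12.4% of all genes. These sums were mostly *S100a8*, *S100a9* and *Ngp*. *Ly6g* (0.403 CPM in shControl and 0.302 CPM in shPpargc1b DCs on average), *Elane* (0.411 and 0.146) and *Mpo* (0.405 and 0.219) were near 0 and had lower means with the knockdown, without passing the test. The 6 mast cell or basophil markers summed to 8.71 to 16.6 and 22.1 to 25.7 CPM, with 2 called higher, *Kit* (0.93) and *Gata2* (1.64), while *Cpa3*, *Mcpt8*, *Fcer1a* and *Ms4a2* did not pass. With IFN-β the sums were 39.1 to 101 against 87.3 to 164 CPM for neutrophil and 7.64 to 14.6 against 12.8 to 21.1 CPM for mast cell or basophil markers. Of 8 dendritic markers 4 were higher with the knockdown in either condition, and of 8 macrophage markers 2 and 3 were lower. With IFN-β, 5 of 8 macrophage markers were higher in either kind of DC. Of 6 proliferation markers 1 was higher and 1 lower with IFN-β in shControl DCs, and in unstimulated DCs 1 was higher and 1 lower with the knockdown. Lymphocyte markers, of which 1 of 6 was tested, and erythroid markers, of which none was tested, were at or near 0. The part of these cells in the differences above was not tested.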

How the data were processed

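RNA-seq was deposited as one table of raw gene counts for 12 libraries. The authors trimmed reads (Trim Galore 0.6.0 in the submitters' processing notes), aligned them to mm10 with STAR (2.7.8a in those notes; the methods name another release) and counted uniquely mapping reads per gene of GENCODE M20 in the aligner's count mode, so these deposited counts leave out reads that fit several loci, such as copies of *Rn7sk*. Libraries were of ribosomal RNA-depleted total RNA, so RNAs without a poly(A) tail are included; the strand setting of the counting is not given in the sources used here. The table names no gene for 3214 of 55471 rows, of which 3116 were named by identifier.

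Genes with at least 10 counts in enough libraries (edgeR's filterByExpr, total at least 15) were kept, 18228 in all, holding 99.96% of counts. One quasi-likelihood model of 4 group means was fitted to all 12 libraries with edgeR 4.0.16 (R 4.3.3) and TMM scaling, and p-values were Benjamini-Hochberg adjusted over all 18228 genes. The fit was tested on simulated counts. Fold change intervals are 1.96 standard errors either side. Single values used exact permutation tests (scipy 1.17.1). Positions come from GENCODE M21 on GRCm38. Alternatives were DESeq2 1.42.0, its median-of-ratios scaling, library totals, all genes with a count, only the 2 groups compared, a block for the run of library codes in the labels, and each library left out. Libraries with codes of the same run deviated together, with small correlations that were all above 0 (median r = 0.0867, 0.0276 to 0.146 over 18 pairs). Pairs of different runs had a median r of -0.0436 (-0.154 to 0.0565 over 36 pairs).

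All 8 members were named in every comparison, and from each gene list the 2 highest and 2 lowest changes past the threshold, with a few items of these lists and of the neighbouring genes not reported here. The members and lists were chosen with earlier results of these data known. The 10 lists were other snoRNA hosts, other nuclear noncoding RNAs, other microRNA hosts, paraspeckle proteins, the 7SK particle, snoRNP proteins, decay factors, ribosomal proteins, reported miR-155 targets and ribosomal RNA.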

Additional observations from a re-analysis of the deposited data

Results flagged for a closer look

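In 4 named genes outside the 8, the knockdown difference on the log2 scale changed with IFN-β by edgeR's interaction test. For *Zfas1* it was 0.32 without and -0.07 with IFN-β, a change of -0.38 (SE 0.07, adjusted p = 0.022). For *Slc3a2* it was 0.42 and 0.1, a change of -0.32 (SE 0.06, adjusted p = 0.0206). For *Mrpl39* it was 0.2 and -0.32, a change of -0.52 (SE 0.07, adjusted p = 0.00617), with both differences called in opposite directions. For *Isg15* it was 0.48 and -0.14, a change of -0.62 (SE 0.13, adjusted p = 0.0489), close to the threshold. The same test called 0.73% of all genes, and 36 to 271 genes when 1 library was left out. The limit given above for *Zfas1* as an antisense gene holds here too.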

How the results depend on the processing

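Each member and comparison was refitted under up to 18 alternatives, 12 of which left out a library. Of 712 values, 686 stayed on the same side of the threshold, 13 lost and 11 gained a call, and 2 reversed. Of the 686, 12 changed sign without being called in either fit. The median-of-ratios scaling and the fits of the 2 groups alone kept the counts of members called within 1.5 times, although *Snhg8* lost its IFN-β call in shPpargc1b DCs in the 2-group fit. The fit on all genes with a count called 6 of 8 for the knockdown in unstimulated DCs instead of 3, the added members being *Malat1* (0.11, adjusted p = 0.0423), *Snhg1* (0.26, 0.0475) and *Snhg12* (0.47, 0.0158). For the interaction, this fit, DESeq2 and the library-code block each called 1 member, *Mir155hg*, instead of 0. Leaving out 1 library gave 3 to 4 members called for the knockdown without IFN-β, 3 to 4 with it, 6 to 7 for IFN-β in shControl, 5 to 6 in shPpargc1b DCs, and 0 to 0 for the interaction.

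The reversals given here came with library totals as the scale, which moved the median IFN-β difference of all genes to -0.27 and -0.22. *Rn7sk* went to -0.22 and -0.16, *Dleu2* to -0.22 and -0.1, *Cdk9* to -0.11 and -0.08, *Ccnt2* to -0.09 and -0.07, *Smg1* to -0.03 and -0.06, and *Rps27l* to -0.18 and -0.05 in shControl and shPpargc1b DCs. In shControl DCs *Rps20* went to -0.01 and *Trp53inp1* to -0.15.

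The joint share of counts differed between hairpins by -0.0367 percentage points without and 0.0266 with IFN-β, and by -0.107 and -0.0414 without *Malat1*. The IFN-β differences, -0.174 in shControl and -0.111 in shPpargc1b DCs, turned to 0.225 and 0.226 with TMM-scaled sizes. With 1 library left out the 4 differences ranged from -0.0692 to -0.00354, 0.00564 to 0.0492, -0.197 to -0.153 and -0.144 to -0.0785. Counts of 73 to 388 for *Snhg12* and 118 to 262 for *Snhg8* limit the precision of those members most.

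The labels give no replicate numbers, but their library codes form 3 runs that each hold 1 library of every group. A fit with the run as a block changed 1 call of a member, the *Mir155hg* interaction (adjusted p = 0.0325), and called 425 genes instead of 133 for the interaction and 5041 instead of 4295 for the knockdown in unstimulated DCs. No label says what a run shares.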
